A study of Homo sapiens with 4 samples.

Results

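The miR-193 and miR-365 miRNAs of U2OS, a human osteosarcoma cell line, were read with 6 quantitative PCR assays, chosen by name from 737 miRNA assays: hsa-miR-193b, hsa-miR-193b*, hsa-miR-365, hsa-miR-365*, hsa-miR-193a-3p and hsa-miR-193a-5p. The shDDX1 sample came from cells infected with a lentivirus carrying a short hairpin RNA against DDX1, an RNA helicase, and its control shNS from cells infected with a virus carrying a control hairpin, both under puromycin selection. The NCS sample came from cells given neocarzinostatin, a drug that makes double-strand breaks in DNA, for 6 h at 500 ng/ml, and its control from untreated cells. Each of the 4 groups was 1 sample, and the differences below therefore carry neither a replicate check nor a p-value. The sources used here do not give the number of hairpins used against DDX1 or say whether the infected cells were pooled. The panels hold no assay for DDX1 mRNA, so the depth of the knockdown is not analysed here. The series title concerns the processing of primary miRNA transcripts by DDX1, which is the question behind the knockdown pair.

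A miRNA hairpin is cut from a primary transcript by Drosha and then by Dicer, and each of its arms can yield a mature strand. In most hairpins the strand loaded into Argonaute, the main or guide arm, outnumbers the other, which older names mark with an asterisk. The main arms of miR-193b and miR-365 have been reported to repress cyclin D1, and in the mouse the miR-193b and miR-365 cluster has been studied in brown fat differentiation. miR-193a-3p has been reported to repress KIT and MCL1. In the RefSeq annotation of GRCh38.p14, MIR193B (chr16:14303967-14304049) and MIR365A (chr16:14309285-14309371) lie on the plus strand within the long non-coding RNA gene MIR193BHG, 5.24 kb apart. MIR193A (chr17:31559996-31560083) and MIR365B (chr17:31575411-31575521) lie on the plus strand of chromosome 17, 15.3 kb apart, and the second is within the non-coding gene MIR365BHG. The only other annotated miRNA gene within 10 kb of the 4 hairpins is MIR4725, for which no assay was used here.

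The mature strands are shown because they say which hairpins an assay can tell apart. They are RefSeq's, 5′ to 3′, with the seed, bases 2 to 8, in capitals.
hsa-miR-193b-3p: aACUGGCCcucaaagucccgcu
hsa-miR-193a-3p: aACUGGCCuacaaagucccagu
hsa-miR-365a-3p and hsa-miR-365b-3p: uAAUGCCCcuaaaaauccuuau
hsa-miR-193b-5p: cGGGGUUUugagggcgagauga
hsa-miR-193a-5p: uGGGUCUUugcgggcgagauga
hsa-miR-365a-5p: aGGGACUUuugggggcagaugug
hsa-miR-365b-5p: aGGGACUUucaggggcagcugu

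miR-193a-3p and miR-193b-3p share a seed and differ at 4 of 22 bases, U9C, A10U, A20G and G21C, with positions counted from the 5′ end and the base of miR-193a-3p first. The -5p arms of the same hairpins also differ at 4 of 22 bases, U1C, U5G, C6U and C11A, and have different seeds. The -3p strands of MIR365A and MIR365B are identical over 22 bases, so the miR-365 assay reads the chromosome 16 and chromosome 17 genes together. The -5p strands of this gene pair differ at 3 of the 22 bases compared, U10C, G11A and A19C, and the assay name miR-365* does not say which of them it was built on. No other mature miRNA in the RefSeq table has any of these 5 seeds. The hairpins are shown with both mature arms in capitals, because the arms of a hairpin are compared below.
MIR193B: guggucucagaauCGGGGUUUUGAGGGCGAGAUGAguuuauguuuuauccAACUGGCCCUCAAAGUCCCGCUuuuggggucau
MIR365A: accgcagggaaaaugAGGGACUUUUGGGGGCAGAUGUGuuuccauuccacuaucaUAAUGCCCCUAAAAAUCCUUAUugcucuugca
MIR193A: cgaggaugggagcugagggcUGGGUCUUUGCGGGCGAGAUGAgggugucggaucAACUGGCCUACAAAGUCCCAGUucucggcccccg
MIR365B: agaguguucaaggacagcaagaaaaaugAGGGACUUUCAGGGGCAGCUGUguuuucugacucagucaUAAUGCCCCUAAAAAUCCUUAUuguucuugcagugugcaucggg

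The assays were spread over a panel I and a panel II plate of 384 wells, and a reading is a quantification cycle (Ct), which falls as template increases. miR-193b, miR-365, miR-193a-3p and miR-193a-5p were on panel I, and miR-193b* and miR-365* on panel II. Ct was under 35 in 723 of 740 miRNA wells in shDDX1, 732 in shNS, 591 in NCS and 521 in untreated cells. All 6 assays were under 35 in all 4 samples. A level is minus Ct after subtraction, within each sample, of the average over the 499 miRNA wells under 35 in all 4 samples (the common centring), and a log2 ratio is a difference of such levels, counting 1 cycle as 1 doubling. The spread of a single log2 ratio, from 7 assays present on both panels, had an SD of 0.38 for shDDX1 over shNS and of 0.79 for NCS over untreated, the second falling to 0.35 without miR-423-5p. It covers technical error only. Being taken across panels, it includes the offset between them and is not the error of a gap between wells of the same panel. The panels moved apart in both pairs. The calibrator wells, which hold the same template on every plate, read 0.68 cycles later in shDDX1 than in shNS on panel I, whereas on panel II they read 0.24 cycles earlier. On the same wells NCS read 0.80 cycles earlier than untreated cells on panel I and 0.027 cycles later on panel II. Water wells gave a Ct in 7 of 9 wells in shDDX1, 6 of 9 in shNS and 0 of 9 in NCS and untreated cells. All 8 mesenchymal miRNAs listed for the cell type were under Ct 35 in each sample, with miR-21 at Ct 17.2 in shDDX1, 16.6 in shNS, 19.7 in NCS and 23.4 in untreated cells. Of 7 miRNAs listed for other tissues, 7 were under it in shDDX1, 7 in shNS, 6 in NCS and 5 in untreated cells. A Ct under 35 therefore does not mark the cell type.

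The main arms of miR-193b and miR-365 were the early readers of the group. miR-193b read Ct 20.5 in shDDX1, 20.2 in shNS, 23.5 in NCS and 23.6 in untreated cells, and ranked 28, 34, 35 and 23 among the 737 assays in those samples. miR-365 read Ct 21.2 in shDDX1, 21.4 in shNS, 24.8 in NCS and 24.7 in untreated cells, with ranks of 41, 53, 54 and 39. Both were thus among the earliest assays in every sample, and miR-193b was ahead of miR-365 by 0.65, 1.21, 1.27 and 1.09 cycles in the same order of samples. Assays can differ in efficiency, so a gap in Ct between assays is not a ratio of molecules.

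The other 4 assays read much later. miR-193b* read Ct 26.9 in shDDX1, 26.7 in shNS, 29.8 in NCS and 28.5 in untreated cells. miR-365* read Ct 28.0 in shDDX1, 27.7 in shNS, 33.4 in NCS and 31.7 in untreated cells. The asterisk strands were the later arm of their hairpins in all 4 samples. miR-193a-3p read Ct 27.5 in shDDX1, 27.1 in shNS, 31.5 in NCS and 33.2 in untreated cells. miR-193a-5p read Ct 27.6 in shDDX1, 26.9 in shNS, 31.3 in NCS and 31.8 in untreated cells. The arms of miR-193a therefore lay within 1.36 cycles of each other in every sample, unlike those of miR-193b, which were at least 4.92 cycles apart.

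**Figure D1:**
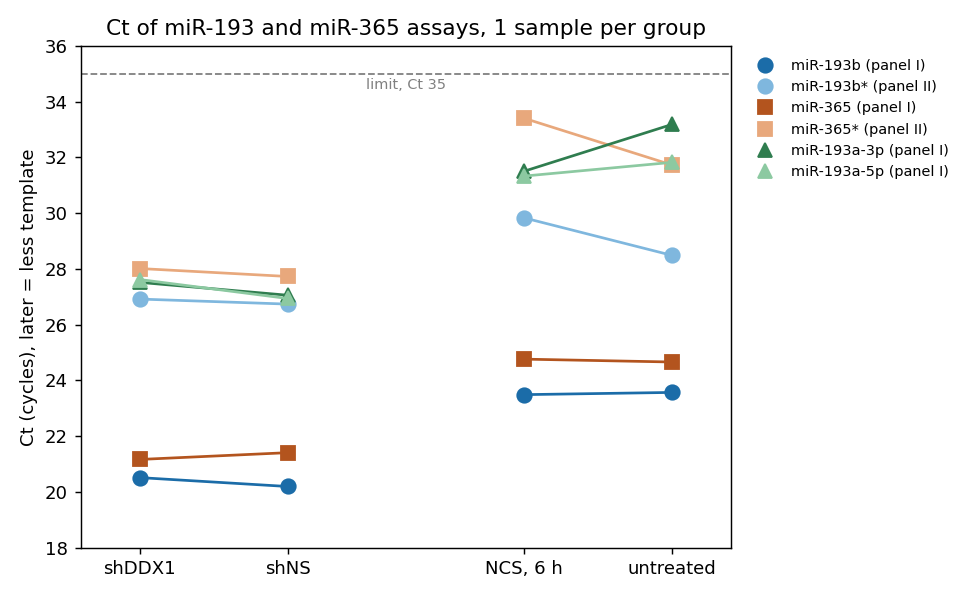
Ct in cycles (y axis, later means less template) of each of the 6 assays in shDDX1, shNS, NCS and untreated cells (x axis), 1 point per sample, with lines joining the samples of a pair and a dashed line at the limit of Ct 35. miR-193b and miR-365 sit between Ct 20.2 and 24.8, and the other 4 assays between 26.7 and 33.4.

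Some of these late readings overlapped those of water. On panel I the earliest water well read Ct 27.3 in shDDX1 and 27.8 in shNS, and on panel II 26.5 in shDDX1 and 26.6 in shNS. Only miR-193b and miR-365 read earlier than the water wells of their own panel in shDDX1, while in shNS both arms of miR-193a did so as well. The 7 assays listed for tissues other than bone, such as miR-122 of liver and miR-451 of red blood cells, read Ct 26.7 to 33.0 in shDDX1 and 25.7 to 32.7 in shNS, the range of the late members. The part of background signal in miR-193b*, miR-365* and the miR-193a arms in the knockdown pair was not tested.

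With DDX1 knocked down, all 6 assays stayed within 2-fold of the control under the common centring. miR-365 was 1.46-fold higher in shDDX1 than in shNS, a log2 ratio of 0.55, and miR-193a-5p was 1.30-fold lower, a log2 ratio of -0.38. The log2 ratios of the others were -0.01 for miR-193b, 0.12 for miR-193b*, 0.02 for miR-365* and -0.16 for miR-193a-3p. Against the technical SD of 0.38, miR-365 lay beyond 1 SD from 0, miR-193a-5p at it, and the other 4 within it. These directions depended on the scaling, which was tried in 10 settings. The settings are not all separate, as the authors' deposited normalized and fold tables gave the same member values in each pair. In the knockdown pair those values also equalled the ones without centring. miR-365 ran from -0.12 against small RNA references to 1.0 with calibrators, and was below 0 in 1 of 10 settings. miR-193a-5p ran from -1.04 against small RNA references to 0.45 after subtraction of neighbouring wells, and was below 0 in 7 of 10. It lay in the middle columns of panel I, whose median log2 ratio in this pair was -0.82, and its neighbouring wells had a median of -0.83. miR-193b was below 0 in 7 of the 10 settings, miR-193b* and miR-193a-3p in 8 and miR-365* in 9. None of 6 was at least 2-fold lower, where 17.3% of all quantified assays were, and none of 6 was at least 2-fold higher, where 11% were. The median of the 6 log2 ratios was 0.0023, beside 0.04 for all 716 quantified assays.

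Set against the plate each assay shared, the order changed somewhat. In the knockdown pair panel I had a median log2 ratio of -0.42 and panel II one of 0.46. miR-365 was higher than most panel I assays, with 8.26% of them at or above it, and miR-193b followed with 29.2% at or above. miR-193b* and miR-365* were below the panel II median, with 31.1% and 25.7% of panel II assays at or below them. With each panel centred on its own wells, miR-365 was 1.96-fold higher in shDDX1, miR-193b had a log2 ratio of 0.41, and miR-193b* and miR-365* had log2 ratios of -0.31 and -0.42. The miR-365* strand was then 1.39 log2 units below miR-365, whereas under the common centring it was 0.53 below. Of 101 hairpins with the main arm on panel I and the second arm on panel II, 10 had a second arm that low relative to the main arm, miR-365 included.

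After NCS all 4 strands of miR-193b and miR-365 were lower than in untreated cells under the common centring, the asterisk strands most of all. miR-365* was 5.31-fold lower, a log2 ratio of -2.41, and miR-193b* was 4.22-fold lower, a log2 ratio of -2.08. Their raw readings came 1.68 and 1.34 cycles later in NCS than in untreated cells. Both differences were larger than the technical SD of 0.79. Both assays were at least 2-fold lower in all 10 scalings and sources tried, from -1.41 to -2.41 for miR-365* and from -1.15 to -2.08 for miR-193b*. On panel II, where the median was -0.84, 6 of 245 assays were as low as miR-365* or lower and 12 of 245 as low as miR-193b*. The Ct of miR-365* in NCS, 33.4, was the latest reading of any member and near the limit of 35. At a limit of Ct 32 miR-365* was not quantified.

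The main arms moved little in raw cycles. miR-193b read 0.079 cycles earlier and miR-365 0.10 cycles later in NCS than in untreated cells. Under the common centring this became a log2 ratio of -0.65 for miR-193b and -0.84 for miR-365, since the average well read earlier in NCS. The first was within the technical SD of 0.79 and the second just beyond it, while both exceeded the SD of 0.35 found without miR-423-5p. With each panel centred separately miR-193b was 2.74-fold and miR-365 3.11-fold lower in NCS. Against the small nuclear and nucleolar RNAs miR-193b was at 0.14 and miR-365 at -0.05. miR-365 was below 0 in all 10 settings and miR-193b in 6 of 10, so the direction for miR-193b depended on the scaling.

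The strands of miR-193a, which come from chromosome 17 alone, read differently. miR-193a-3p read 1.68 cycles earlier in NCS than in untreated cells and was 1.93-fold higher, a log2 ratio of 0.95. It was above 0 in all 10 settings, from 0.14 with each panel centred to 1.73 against the small RNAs, and at least 2-fold higher in 6 of them. The 6 include 3 of the 7 scalings of the Ct readings, and the authors' deposited normalized and fold tables, which gave the same value. The Ct of miR-193a-3p in untreated cells, 33.2, was near the limit of 35. miR-193a-5p had a log2 ratio of -0.24, within the technical SD, and was below 0 in 5 of the 10 settings.

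Across the 6 assays after NCS, 2 were at least 2-fold lower, where 22.3% of all 498 quantified assays were, and 0 at least 2-fold higher, where 16.9% were. Among panel II assays alone, 40.4% were at least 2-fold lower, so the call itself was common on the plate that held both asterisk strands. The median of the 6 was -0.74, beside -0.38 for all quantified assays. With each panel centred separately, 5 of 6 were at least 2-fold lower, all but miR-193a-3p, where 20.5% of all assays, 33.6% of panel I assays and 7.35% of panel II assays were. The panel I share takes in both middle and outer columns, which differed after NCS as given below.

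**Figure D2:**
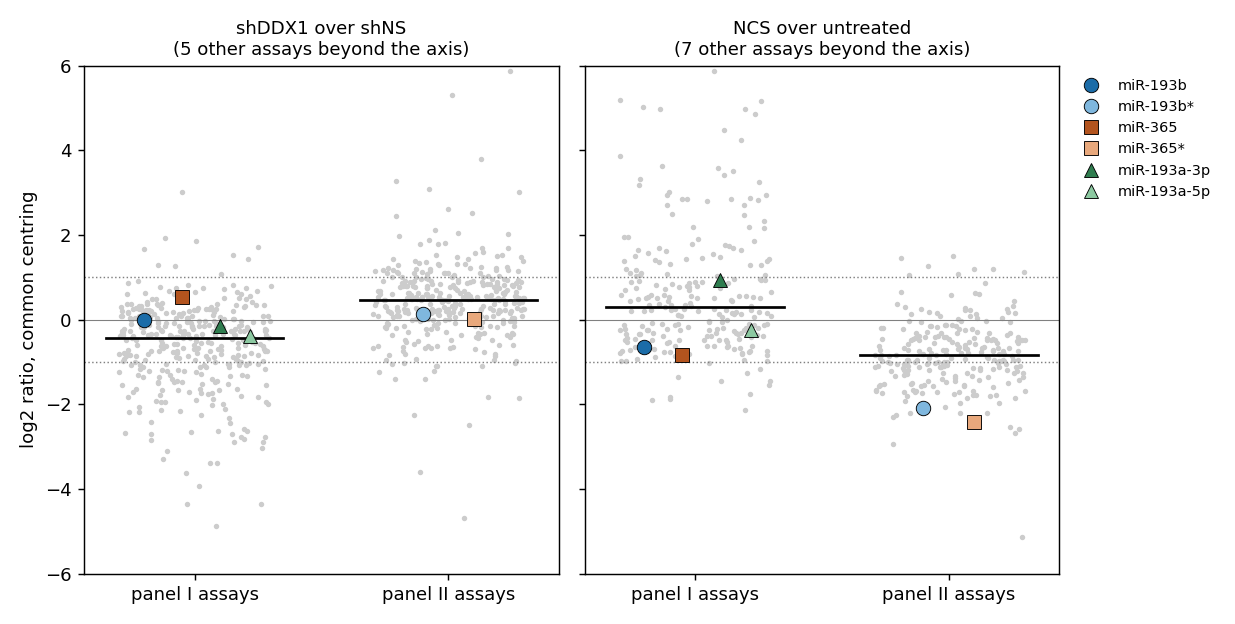
Log2 ratios under the common centring (y axis) of the quantified assays on panel I and panel II (x axis), for shDDX1 over shNS on the left and NCS over untreated on the right. Grey points are other miRNA assays, black bars the panel medians, dotted lines 2-fold, and the large symbols the 6 assays: miR-365* at -2.41 and miR-193b* at -2.08 lie low on panel II after NCS, and all 6 lie within 2-fold in the knockdown pair.

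Position on the plate moved with these values. Relative to NCS, untreated cells read late in the middle of panel I: the median log2 ratio after NCS was 1.21 in its columns 7 to 18 and -0.16 in its outer columns. miR-193a-5p was in a middle column of panel I, at L12, while miR-193b, miR-365 and miR-193a-3p were in outer columns, at C21, P6 and O24. The 15 quantified wells within 2 rows and 2 columns of miR-193a-5p had a median log2 ratio of 1.46 after NCS. Relative to them it was 3.25-fold lower in NCS, at -1.70. miR-193a-3p was 2.26-fold higher than the median of its 6 quantified neighbours, at 1.18. miR-365* and miR-193b* were at -1.41 and -1.15 relative to their own neighbours, whose medians were -1.0 and -0.93. miR-193b and miR-365 were at -0.68 and -0.72 on that scale, close to their values under the common centring. The part of plate position in these ratios was not tested further.

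The arms of a hairpin come from 1 precursor, so their ratios were set against each other. For miR-365 the main arm can come from either gene, so its pair is not strictly that of a single hairpin. After NCS miR-193b* was 1.42 log2 units below miR-193b, and miR-365* 1.57 below miR-365. Both gaps exceeded 1.12, the technical SD of a difference between assays in the NCS pair. Each of these hairpins had its main arm on panel I and its second arm on panel II. Among the 65 hairpins laid out that way and quantified after NCS, 58 had the second arm below the main arm, with a median gap of -1.28, so the gaps of miR-193b and miR-365 lay near the middle. With each panel centred separately the gaps were 0.21 and 0.06, and after each plate was set to its calibrators -0.60 and -0.75. The raw gap between miR-193b and miR-193b* was 6.41 cycles in shDDX1 and 6.54 in shNS, and 6.34 in NCS and 4.92 in untreated cells. With each arm read over the calibrators of its own panel it was 8.44 in shDDX1, 7.66 in shNS, 8.97 in NCS and 8.37 in untreated cells, so untreated cells, the lowest in raw cycles, then lay between the others. The raw gap between miR-365 and miR-365* was 6.85 cycles in shDDX1 and 6.32 in shNS, and 8.64 in NCS and 7.07 in untreated cells. Over the calibrators it was 8.89 in shDDX1, 7.44 in shNS, 11.3 in NCS and 10.5 in untreated cells, so the NCS sample was the highest on both scales.

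Both arms of miR-193a were on panel I, and a shift of the whole plate cannot change their difference. They lay in different parts of it, however, miR-193a-5p in a middle column and miR-193a-3p in an outer one. Their neighbouring wells had median log2 ratios of 1.46 and -0.23 after NCS. miR-193a-5p was 1.19 log2 units below miR-193a-3p after NCS and 0.22 below it in shDDX1. The first gap was larger than the technical SD of 1.12 for a difference, or 0.50 without miR-423-5p, and the second was below the 0.54 of the knockdown pair. Those SDs come from assays repeated across panels and do not measure the effect of position within a plate. Of 22 hairpins with both arms on panel I and quantified after NCS, 7 had a second arm that low relative to the first, miR-193a included. The first arm there was the -3p strand or the strand without an asterisk, and the count depends on that order. The gap of miR-193a was -2.87 after subtraction of neighbouring wells and -0.37 in the authors' deposited normalized table.

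**Figure D3:**
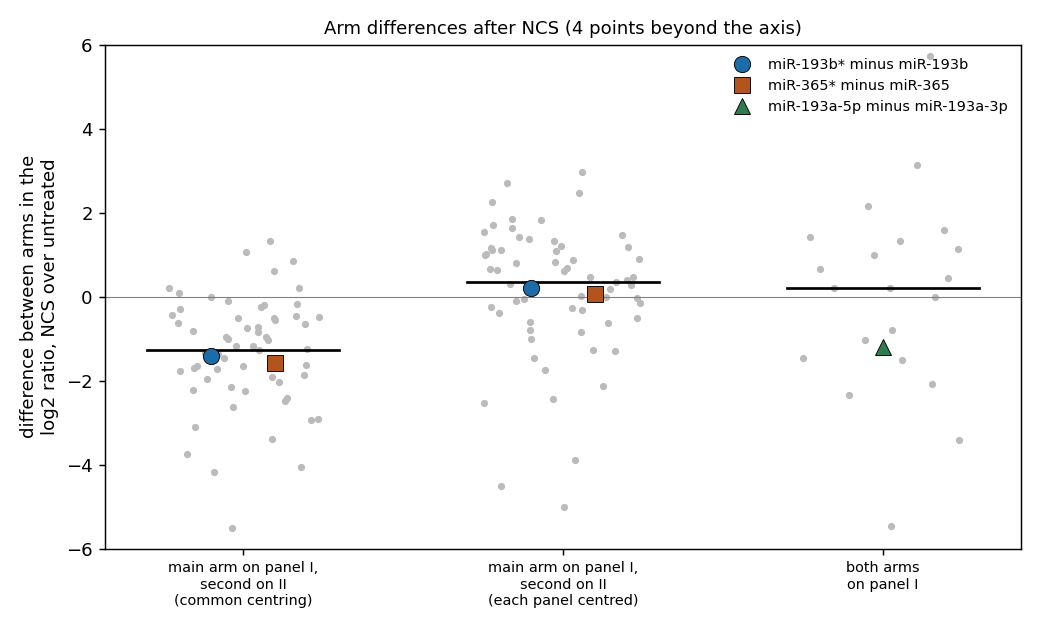
Difference between the arms of a hairpin in their log2 ratios, NCS over untreated (y axis), for hairpins with the main arm on panel I and the second on panel II under both centrings, and for hairpins with both arms on panel I (x axis). Grey points are other hairpins and black bars medians: miR-193b and miR-365 sit at -1.42 and -1.57 beside a median of -1.28, and at 0.21 and 0.06 once each panel is centred.

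The seed sharers miR-193a-3p and miR-193b could also be compared within panel I, in outer columns. miR-193a-3p was 1.60 log2 units, or 3.03-fold, above miR-193b after NCS, and 0.14 below it in shDDX1. The first gap exceeded the technical SD of 1.12, or 0.50 without miR-423-5p, and the second did not exceed 0.54. It held its sign in the other settings for NCS, at 1.85 after subtraction of neighbouring wells and 1.11 in the authors' deposited normalized table. miR-193b and miR-365, whose hairpins MIR193B and MIR365A are neighbours in MIR193BHG, differed by 0.18 after NCS and by 0.56 in the knockdown pair, with miR-365 the higher in shDDX1. After subtraction of neighbouring wells miR-365 was instead 0.20 below miR-193b in shDDX1, at 0.32 against 0.52.

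The authors' deposited fold table gave 0.80 for miR-193b, 0.88 for miR-193b*, 1.18 for miR-365, 0.82 for miR-365*, 0.73 for miR-193a-3p and 0.62 for miR-193a-5p in shDDX1 over shNS. For NCS over untreated the same table, as deposited by the authors, gave 1.14 for miR-193b, 0.42 for miR-193b*, 0.88 for miR-365, 0.37 for miR-365*, 2.46 for miR-193a-3p and 1.91 for miR-193a-5p. For the knockdown pair these folds match the raw Ct differences of the members, and for the NCS pair they do not. In the authors' deposited normalized table shDDX1 and shNS had both been moved by -0.79 cycles for panel I assays and by 0.79 for panel II assays. For the members of panel I the shift ran between -3.36 and -4.05 cycles in NCS and between -3.26 and -3.81 in untreated cells. It therefore differed from well to well, and the rule behind it is not stated.

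**Figure D4:**
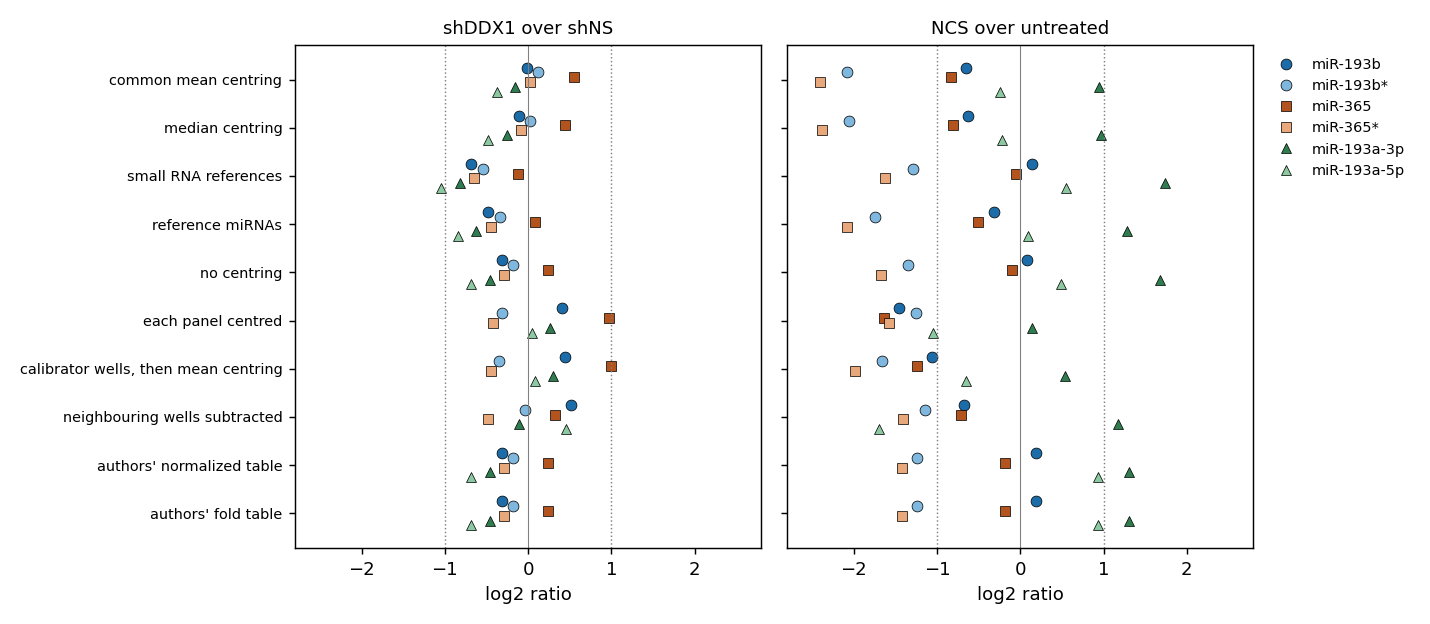
Log2 ratios (x axis) of the 6 assays under the common centring and 9 other scalings or sources (y axis), for shDDX1 over shNS on the left and NCS over untreated on the right, with dotted lines at 2-fold. miR-193b* and miR-365* are below -1 in all 10 settings after NCS, and miR-193b crosses 0.

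Other miRNAs reported to repress cyclin D1 were looked at beside miR-193b and miR-365. In shDDX1, 4 of 13 were at least 2-fold lower and 0 higher, beside shares of 17.3% lower over all assays and 29.2% lower on panel I, which held all 13. The shares higher were 11% over all assays and 2.75% on panel I. The 13 had a median of -0.89 and ran from -2.41 for miR-16 to 0.74 for miR-15a. After NCS, 0 of 11 quantified were lower and 6 higher. Over all assays 22.3% were lower and 16.9% higher, and on panel I 4.8% and 30.4%. The median of the 11 was 1.37, and they ran from -0.62 for miR-15b to 4.98 for miR-16. With each panel centred separately 3 were lower and 1 higher in shDDX1 and 4 lower and 3 higher after NCS. Panel I shares were then 19.6% lower and 7.71% higher in shDDX1, and 33.6% lower and 18% higher after NCS. Over all assays they were 15.6% lower and 7.82% higher in shDDX1, and 20.5% lower and 13.7% higher after NCS. miR-193b and miR-365, also on panel I, lay between the extremes in the knockdown pair and below the lowest, miR-15b, after NCS, at -0.65 and -0.84. Both were nearer to miR-15b than the technical SD of a difference, 0.50 without miR-423-5p, so they are not set apart from the list. They lay in outer columns of panel I, where 10% of wells were at least 2-fold higher after NCS, against 55.8% in columns 7 to 18. The part of plate position in this comparison was not tested. Of 10 miRNAs tied to brown fat or muscle differentiation, 9 of them on panel I, 4 were 2-fold lower or more in shDDX1, and 0 higher, beside the same shares of 17.3% and 29.2% lower. They ran from miR-133b at -1.64 to miR-27a at 0.24. After NCS 1 of 6 quantified was lower and 2 higher, from miR-27b at -1.27 to miR-155 at 6.00. The shares were again 22.3% lower and 16.9% higher over all assays, and 4.8% and 30.4% on panel I. With each panel centred separately 2 were lower and 0 higher in shDDX1, and 2 lower and 2 higher after NCS. The panel-centred shares beside these counts are those given for the cyclin D1 list.

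The assays closest to each member in the pair of log2 ratios were taken from 490 others under Ct 35 in all samples. They were miR-574-3p, miR-379 and miR-214 for miR-193b, at distances of 0.05 to 0.06 log2 units. For miR-365 they were miR-320b, miR-1972 and miR-589*, at 0.01 to 0.02, and all 3 lay on panel II. For miR-193b* they were miR-642a, miR-100 and miR-1269, at 0.18 to 0.25. For miR-365* the closest were miR-15a*, miR-148b* and miR-525-3p, at 0.34 to 0.52, farther than for any other member. miR-301b, miR-25 and miR-133a were closest to miR-193a-3p, and miR-516a-5p, miR-204 and miR-151-3p to miR-193a-5p, all within 0.12. In shDDX1 the reference assays ran from 0.37 for miR-191 to 1.0 for U6, with SNORD49A at 0.45, miR-103 at 0.45, SNORD38B at 0.54 and miR-423-5p at 0.57. After NCS they ran from -0.97 for SNORD38B to 0.65 for miR-423-5p, whose wells on the panels disagreed, with miR-191 at -0.88, SNORD49A at -0.85, miR-103 at -0.77 and U6 at -0.55. These values are means over both panels. miR-365 at 0.55 in shDDX1 and -0.84 after NCS was close to most of these means, and miR-193b at -0.65 after NCS likewise. miR-193b* and miR-365* were more than 1 log2 unit below each mean after NCS. On panel II alone, without centring, miR-193b* was at -1.34, less than 1 below SNORD38B at -0.40 and SNORD49A at -0.41. The other references there ran from -0.26 to 0.03, and miR-365* was at -1.68. In shDDX1, without centring, miR-365 was at 0.24, above most panel I reference wells. Those were miR-191 and miR-423-5p at -0.19, SNORD49A at -0.06, miR-103 at 0.06, SNORD38B at 0.25 and U6 at 1.10.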

How the data were processed

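Per the labels, Trizol was used to extract total RNA from the 4 U2OS samples, an Exiqon kit made the cDNA, and SYBR Green readings were taken on human miRNA PCR panels I and II. The authors deposited a Ct per well, a table of shifted Ct values, and a table of linear fold ratios over each control. The instrument, its threshold and the rule behind the shifts are not given in the sources used here. Starting from the Ct table, wells were centred on the mean of the 67.4% of 740 miRNA wells under Ct 35 in all samples, and 3 miRNAs present on both panels were averaged (Python 3.11.15, pandas 2.3.3, numpy 2.4.6). The calculation was tested on simulated Ct values. An assay was quantified under Ct 35 in both samples of a pair and called at 2-fold. With 1 sample per group no test was run. The 6 members, the lists and the settings were chosen with earlier results of these data known. The text names all members, the lowest and highest member of each of the cyclin D1 and brown fat lists, the reference assays, and the 3 assays nearest to each member by Euclidean distance. Arm names follow older miRNA nomenclature, and sequences are RefSeq's (GRCh38.p14). Counts leave out blank wells, spike-ins and 5 assays whose names stand in brackets. Both control columns of the fold table were not used.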

Additional observations from a re-analysis of the deposited data

Results flagged for a closer look

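Water wells, which lie outside the main measurement, gave a Ct in 7 of 9 wells in shDDX1 and 6 of 9 in shNS, against 0 of 9 in NCS and in untreated cells. The earliest water well on panel I read Ct 27.3 in shDDX1 and 27.8 in shNS, close to miR-193a-3p at 27.5 and 27.1 and to miR-193a-5p at 27.6 and 26.9 in the same samples. On panel II it read 26.5 in shDDX1 and 26.6 in shNS, ahead of miR-193b* at 26.9 and 26.7 and of miR-365* at 28.0 and 27.7. The water wells of the NCS pair gave no Ct, so the readings of these strands after NCS have no such signal beside them.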

How the results depend on the processing

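No paired analysis was possible because no group holds more than a single sample, and no replicate could be left out. The count of members at least 2-fold lower in shDDX1, 0 of 6, became 1 against small RNA references, with miR-193a-5p at -1.04, where 35.9% of all assays were lower. The count at least 2-fold higher in shDDX1, 0 of 6, became 1 with each plate set to its calibrators, with miR-365 at 1.0, where 7.82% were higher. The count at least 2-fold lower after NCS, 2 of 6, became 5 with each panel centred separately (20.5% of all assays), 4 with each plate set to its calibrators (19.7%), 4 at a threshold of 1.5-fold (40.6%), and 1 at a limit of Ct 32 (18.4%), where 4 members were quantified and miR-365* was not. The count at least 2-fold higher after NCS, 0 of 6, became 1, miR-193a-3p, against small RNAs (31.7% of all assays), against reference miRNAs (21.5%), without centring (28.9%), after subtraction of neighbouring wells (16.7%), in the authors' deposited normalized and fold tables (31.3% in each), and at 1.5-fold (22.7%). The other settings among the 14 tried kept each count within 1.5 times. Against the common centring, the median of all assays was shifted by -0.67 in the knockdown pair and 0.79 after NCS with small RNA references, by -0.46 and 0.33 with reference miRNAs, and by -0.30 and 0.73 without centring. No call at 2-fold under the common centring changed sign. Why the counts differ was not tested beyond the shifts given here.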
